A study of Mus musculus with 24 samples.

Results

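The arrays taken 48 h after RANKL were set against those taken at 24 h to describe the second day of treatment, the interval in which precursors of bone-resorbing cells are held to turn from division to differentiation. The arrays were chosen by their titles alone: 6 arrays at 48 h and 6 at 24 h, which make 12 of the 24 arrays in the series. The remaining arrays, 6 at 0 h and 6 at 72 h, entered the same fit and supplied the step before and the step after. All samples were bone marrow-derived macrophages (BMMs) of male C57BL/6 mice aged 5 weeks, with the marrow taken from tibias and femurs. Cells that floated after 24 h of culture of whole marrow were grown for 72 h with the macrophage growth factor M-CSF at 30 ng/mL, and the attached cells then received M-CSF at 30 ng/mL with RANKL at 100 ng/mL for 24 h or for 48 h. The labels give no genetic change for either group. Cells held in M-CSF alone beyond 0 h were not analysed here, so RANKL and time in culture cannot be told apart. Whether the 6 samples of a time were separate cultures or mice is not said in the labels. The p-values therefore cover the spread among those samples only, and that spread may be technical.

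Osteoclasts are the multinucleated cells that resorb bone. They form when precursors of the macrophage lineage, kept alive and dividing by M-CSF, bind RANKL through the receptor RANK, stop dividing, fuse and attach to bone. RANK signals through TRAF6, NF-κB and AP-1 to the transcription factor NFATc1, while factors such as IRF8, BCL6 and the ID proteins restrain the programme. The mature cell pumps acid through the vacuolar ATPase and digests matrix with cathepsin K and metalloproteinases carried in lysosomes.

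Values are log2 probe signals after quantile normalization, which gives every array the same distribution, and a difference of 1 is a 2-fold change. Of 45281 probes, 18346 passed a detection p of 0.05 on 3 or more of the 6 arrays at 1 or more times, and they represent 9917 named genes. The 12 arrays had median raw signals of 94.1 to 122 and detected 15974 to 17109 probes each, and 0 pairs of arrays in the series held identical signals. Pearson's r across genes, which are not independent replicates, was 0.994 to 0.998 between arrays of 1 time and 0.923 to 0.929 between a 24 h and a 48 h array. Replicate 4 at 48 h deviated most from its group, with a root mean square deviation of 0.144. Among defining markers, the macrophage genes Csf1r and Adgre1 were detected on all 12 arrays, as were the osteoclast genes Ctsk, Mmp9 and Acp5. The probe of Calcr, the calcitonin receptor of mature osteoclasts, was detected on 2 of 24 arrays, and that of Atp6v0d2 on 0. No probe was paired with Mki67, Ccnb1 or Cd68, which were not analysed here.

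From 24 h to 48 h, 3883 genes (39.2% of those tested) were higher and 3434 (34.6%) were lower at an adjusted p under 0.05 in limma, so 73.8% moved past the threshold. Over all genes tested, whether they passed or not, the median absolute log2 difference was 0.31 against a median SE of 0.06. At a 1.5-fold change or more, 1466 genes (14.8%) rose and 1402 (14.1%) fell past the threshold. At a 2-fold change or more, 605 genes (6.10%) rose and 645 (6.50%) fell. At 4-fold or more, 89 (0.897%) rose and 145 (1.46%) fell. Of all calls, 53.1% were rises, or 45.7% with median scaling of the arrays in place of quantile normalization. The 6 arrays at 48 h lay above all 6 at 24 h for 2968 genes (29.9%) and below them for 2691 (27.1%). Over all genes the median difference was 0.03. Among the genes tested, 107 were detected on no array at 24 h and on every array at 48 h, and 126 showed the opposite pattern. In bulk samples, fewer cells of a type and less RNA per cell cannot be told apart.

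**Figure D1:**
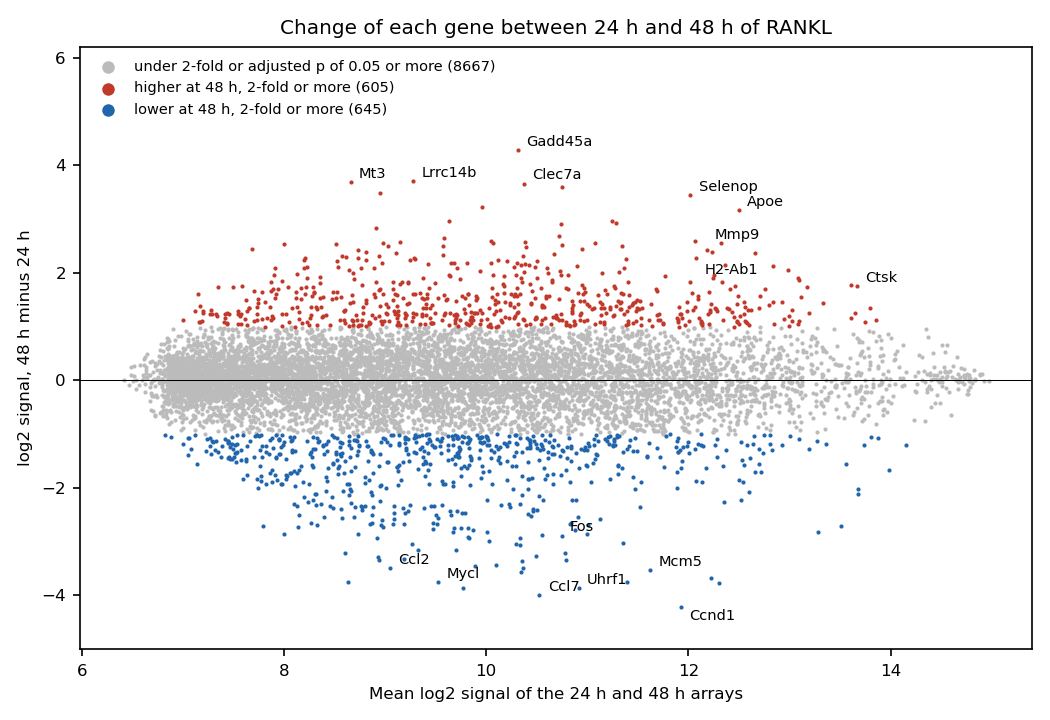
Each point is 1 of the 9917 genes tested, placed by its mean log2 signal over the 24 h and 48 h arrays and by its log2 difference, 48 h minus 24 h; red and blue mark the 605 genes that rose and the 645 that fell 2-fold or more at an adjusted p under 0.05. Gadd45a stands at the upper edge with a difference of 4.29 and Ccnd1 at the lower edge with -4.22.

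Gadd45a, a stress protein linked to growth arrest, had the largest rise. Its log2 signal ran from 8.08 to 8.26 (median 8.16) at 24 h and from 12.41 to 12.55 (median 12.45) at 48 h, a 19.6-fold difference (log2 4.29 ± 0.05, SE; adjusted p = 4.57e-39). The groups were far apart, and its other probe changed by 3.65. Clec7a, the beta-glucan receptor Dectin-1, went from 8.42 to 8.70 (median 8.54) up to 12.12 to 12.29 (median 12.18), a 12.6-fold rise. Oscar, a collagen-binding receptor that co-stimulates osteoclast formation, went from 7.07 to 7.31 (median 7.21) up to 10.54 to 10.82 (median 10.70), an 11.2-fold rise. Neither gene had arrays that overlapped between the times, which the choice of the largest rises required. Mt3, a metallothionein, was detected on 0 arrays at 24 h and on 6 at 48 h, where its signal was 10.38 to 10.69, and it was at least 11.2-fold higher against the lowest detected signal of each 24 h array. Apoe, which carries lipids, rose 8.92-fold, the sterol 27-hydroxylase gene Cyp27a1 rose 9.38-fold, and Selenop, a secreted carrier of selenium, rose 10.8-fold. The other genes among the 12 largest rises were Lrrc14b (13-fold), Cnrip1 (12.1-fold), Tecpr1 (7.83-fold), which acts in autophagosome fusion, the galactose-type lectin gene Mgl2 (7.81-fold) and Fcgrt (7.58-fold), the neonatal Fc receptor.

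Ccnd1, the D-type cyclin that opens the G1 phase, had the largest fall. It stood at 13.91 to 14.13 (median 14.04) at 24 h and at 9.61 to 9.93 (median 9.86) at 48 h, an 18.6-fold difference (log2 -4.22 ± 0.05, SE; adjusted p = 5.79e-37). The monocyte chemoattractant gene Ccl7 was 12.39 to 12.62 (median 12.52) and then 8.47 to 8.61 (median 8.53), a 15.9-fold fall, and Ccl2 fell 11.3-fold. The arrays of both genes separated fully, which the choice of the largest falls required. Replication genes made up much of the rest: Uhrf1 fell 14.5-fold, Tk1 11.8-fold and Mcm5 11.5-fold, and the histone H2A genes H2ac11, H2ac15, H2ac22 and H2ac12 fell 12.7-fold to 14.6-fold. The H2A genes are near-identical copies, so their separate values are uncertain. Mycl, which encodes L-MYC, fell 13.5-fold. The probe of Dmpk, a muscle kinase gene, was detected on 6 arrays at 24 h and 0 at 48 h and was at least 11.2-fold lower, but its second probe changed by -0.10 (adjusted p = 0.120), so this fall rests on 1 probe.

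The cell cycle genes fell together. All 47 DNA replication genes tested were lower at 48 h, against 34.6% of all genes, with a median difference of -1.94 against 0.03. In 46 of them every 48 h array lay below every 24 h array, against 27.1% of all genes. Of 49 genes of mitosis and cytokinesis, 48 fell (median -2.03). The exception was Ncapg2, a condensin subunit gene, at 1.36, whose other probes gave 0.95 and 0.03. Averaged over the list, the replication genes stood at 10.64 to 10.69 on the 24 h arrays and at 8.66 to 8.72 on the 48 h arrays. The mitosis genes stood at 10.01 to 10.05 and then at 8.07 to 8.11. The falls ended below the starting point: 46 of the 47 replication genes and 46 of the 49 mitosis genes were lower at 48 h than at 0 h, although 44 and 46 of them had risen by 24 h. Over all genes, 33.1% were higher and 39.2% lower at 48 h than at 0 h, and 29.2% had risen by 24 h. From 48 h to 72 h, 39 of the mitosis genes and 21 of the replication genes fell again, against 19.4% of all genes.

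Mcm5, a subunit of the replicative helicase, stood at 13.35 to 13.45 (median 13.37) at 24 h and at 9.73 to 9.97 (median 9.87) at 48 h. Mcm2, another subunit, stood at 10.94 to 11.03 (median 10.99) and then at 8.48 to 8.58 (median 8.53), a 5.50-fold fall. Both were tight within each time and far apart between them. Cdk1, the kinase that drives entry into mitosis, was 11.89 to 12.09 (median 12) and then 8.85 to 9.22 (median 9.16), a 7.37-fold fall (adjusted p = 4.31e-32). Plk1, a mitotic kinase, fell 11.2-fold, Cdc20, an activator of the anaphase-promoting complex, fell 9.56-fold, and Birc5, which encodes survivin, fell 9.24-fold. The topoisomerase gene Top2a fell 8.35-fold, with its probes between -3.06 and -1.79. Anln, a scaffold of the cytokinetic ring, fell 10.3-fold on its main probe while another gave -0.69. All of these were lower on every 48 h array.

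**Figure D2:**
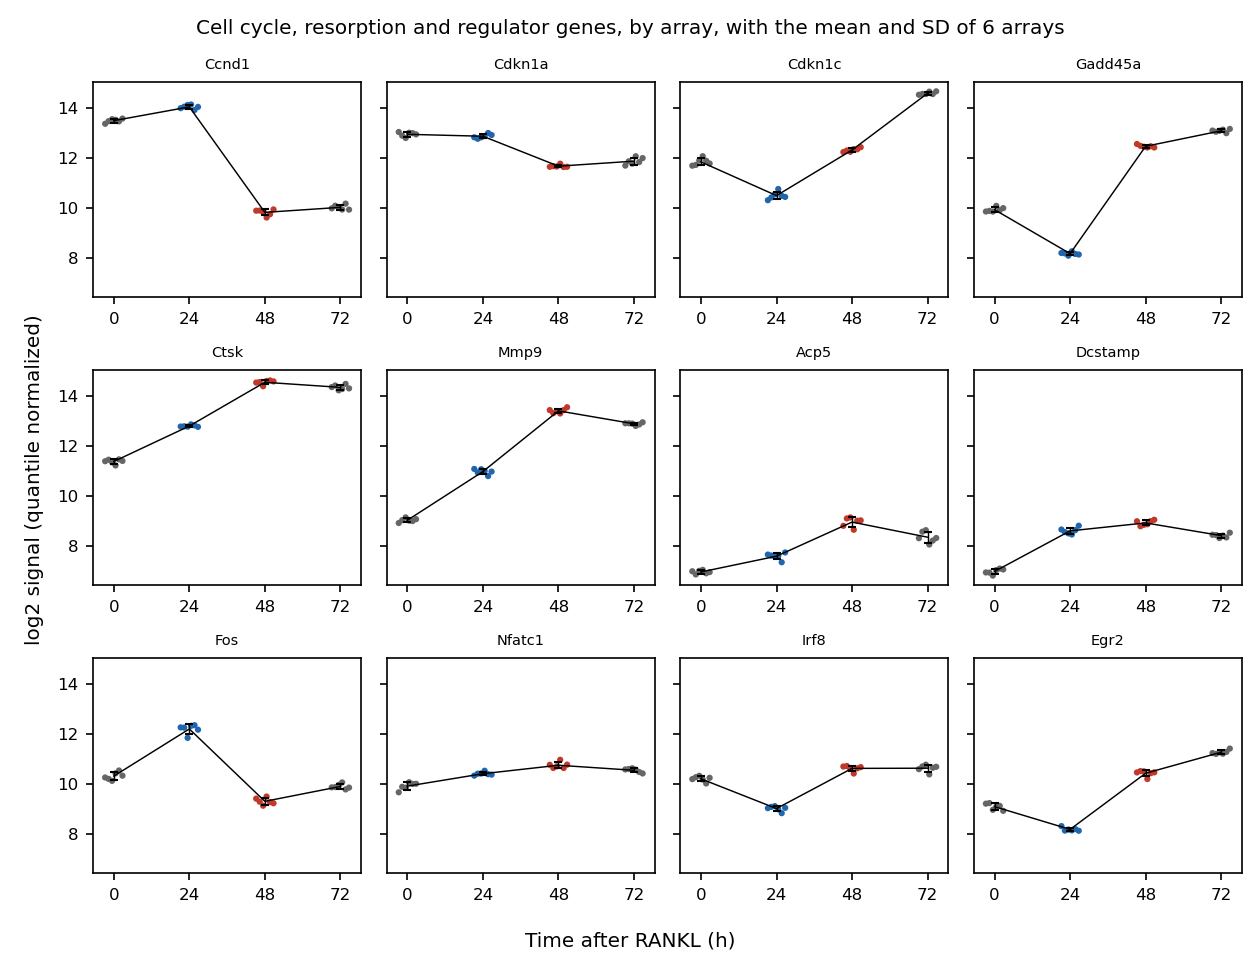
Log2 signal after quantile normalization (vertical axis) against hours after RANKL (horizontal axis) for 12 genes, with points for single arrays, a line through the means and bars for the SD of 6 arrays; levels are not comparable between genes. Between 24 h and 48 h the points of Ccnd1 drop from 14.04 to 9.86 and those of Gadd45a climb from 8.16 to 12.45, while the points of Dcstamp at the 2 times overlap.

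Because these genes moved together, the 250 bases before their starts were searched on both strands for short motifs, in RefSeq promoters of build GRCm38.p6, which were found for 8075 of the 9917 genes. The E2F motif was searched as TTTNNCGC, a loose form in which N is any base. This motif was present in 8 of 39 replication promoters (20.5%), against 7.47% of the promoters of all genes tested and 4.39% of 27025 promoters. It was also present in 6 of 40 mitosis promoters and in 2 of 11 promoters of vacuolar ATPase subunits (18.2%), most of which rose. TTTGAA, the core of the cell cycle homology region, was present in 17 of 40 mitosis promoters (42.5%), against 11% of genes tested and 16.3% of all promoters, and in 15.4% of the replication promoters. CCAAT boxes were found in 67.5% of the mitosis promoters and 59.0% of the replication promoters, against 36.5% of genes tested and 34.5% of all promoters. No motif contains another, and a match is a description of letters, not a bound site. The promoters of Uhrf1 and Mcm5 are shown as the most changed replication genes with an E2F motif, and those of Cdc20 and Top2a as mitosis genes with both other motifs. Capitals mark the E2F matches in Uhrf1 and Mcm5 and the TTTGAA and CCAAT matches in Cdc20 and Top2a, so CCAAT matches of Uhrf1 and Mcm5 stay in lower case. Each runs 5′ to 3′ on the strand of its gene, which is the plus strand for Uhrf1 at chr17:56303087-56303336 and Mcm5 at chr8:75109259-75109508, and the minus strand for Cdc20 at chr4:118437344-118437593 and Top2a at chr11:99024190-99024439.
Uhrf1: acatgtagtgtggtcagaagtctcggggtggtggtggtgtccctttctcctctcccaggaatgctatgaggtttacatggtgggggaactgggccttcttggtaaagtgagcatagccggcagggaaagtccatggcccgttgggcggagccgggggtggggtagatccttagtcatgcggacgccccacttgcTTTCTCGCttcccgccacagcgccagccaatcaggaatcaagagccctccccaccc
Mcm5: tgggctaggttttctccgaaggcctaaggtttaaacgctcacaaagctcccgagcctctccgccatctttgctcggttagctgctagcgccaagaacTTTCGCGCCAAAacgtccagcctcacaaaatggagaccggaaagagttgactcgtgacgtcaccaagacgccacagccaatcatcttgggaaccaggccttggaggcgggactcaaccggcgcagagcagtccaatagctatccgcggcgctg
Cdc20: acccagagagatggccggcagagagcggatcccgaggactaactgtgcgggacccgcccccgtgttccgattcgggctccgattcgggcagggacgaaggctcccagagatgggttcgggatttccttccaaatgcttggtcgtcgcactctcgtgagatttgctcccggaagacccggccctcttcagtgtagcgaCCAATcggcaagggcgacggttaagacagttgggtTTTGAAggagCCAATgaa
Top2a: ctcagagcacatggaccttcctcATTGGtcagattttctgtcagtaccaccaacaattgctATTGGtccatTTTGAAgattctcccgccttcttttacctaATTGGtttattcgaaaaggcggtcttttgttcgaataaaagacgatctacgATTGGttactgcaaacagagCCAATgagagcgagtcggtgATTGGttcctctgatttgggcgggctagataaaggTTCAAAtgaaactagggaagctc
Mcm5 holds 2 overlapping E2F matches on opposite strands, and Cdc20 carries its TTTGAA between 2 CCAAT matches. Top2a holds 8 matches, of which 6 are CCAAT boxes.

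The genes of the G1 list mostly fell. Of 21 tested, 13 fell and 5 rose (median -0.36), against 34.6% and 39.2% of all genes. The gene of this list that rose most was Gas6, which encodes a ligand of Mertk and is not itself a G1 cyclin, kinase or inhibitor. Besides Ccnd1, the falls took in the cyclin gene Ccnd3, at 2.24-fold. Ccne1, the cyclin of the entry into S phase, was counted with the replication genes and fell 2.32-fold. Among the inhibitors of cyclin-dependent kinases tested, Cdkn1c alone rose past the threshold, and the others fell or did not pass. Cdkn1a, which encodes p21, was 12.76 to 12.99 (median 12.84) at 24 h and 11.63 to 11.76 (median 11.64) at 48 h, a 2.29-fold fall, whereas Cdkn1c, which encodes p57, went from 10.30 to 10.75 (median 10.46) up to 12.23 to 12.42 (median 12.31), a 3.54-fold rise (adjusted p = 4.06e-25). No 48 h array of either gene reached the 24 h range. Cdkn1c rose again by 2.27 to 72 h, while Cdkn1a moved by 0.20. Trp53inp1, a p53 target linked to cell death and arrest, rose 3.04-fold, and Rb1, which encodes the retinoblastoma protein that holds E2F in check, rose 1.58-fold. Probes of Cdkn1b were not detected often enough to be tested.

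The genes of growth followed the cell cycle. Of 35 ribosome biogenesis genes, 34 fell (median -0.92), and their mean over the list dropped from 10.50 to 10.51 on the 24 h arrays to 9.43 to 9.46 on the 48 h arrays. The nucleolar genes Bop1 and Nhp2 fell 3.67-fold and 3.64-fold. Pes1, a partner of Bop1 in ribosome assembly, was the exception at 0.23 (adjusted p = 0.000173), and its arrays overlapped. With median scaling its difference was 0.13 (adjusted p = 0.0840). Of 24 nucleotide synthesis genes, 23 fell (median -1.35) and 0 rose, against 34.6% and 39.2% of all genes. Ctps, which makes CTP, stood at 11.21 to 11.34 (median 11.24) at 24 h and at 8.29 to 8.64 (median 8.46) at 48 h, a 6.93-fold fall, and Uck2, a uridine and cytidine kinase, fell 6.90-fold. The groups of both genes were far apart. Myc, whose product drives ribosome and nucleotide synthesis, was 8.52 to 8.89 (median 8.71) at 24 h, was detected on 0 arrays at 48 h and was at least 3.19-fold lower. In all, 29 of the 35 ribosome genes and 20 of the 24 nucleotide genes were below 0 h at 48 h, against 39.2% of all genes.

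**Figure D3:**
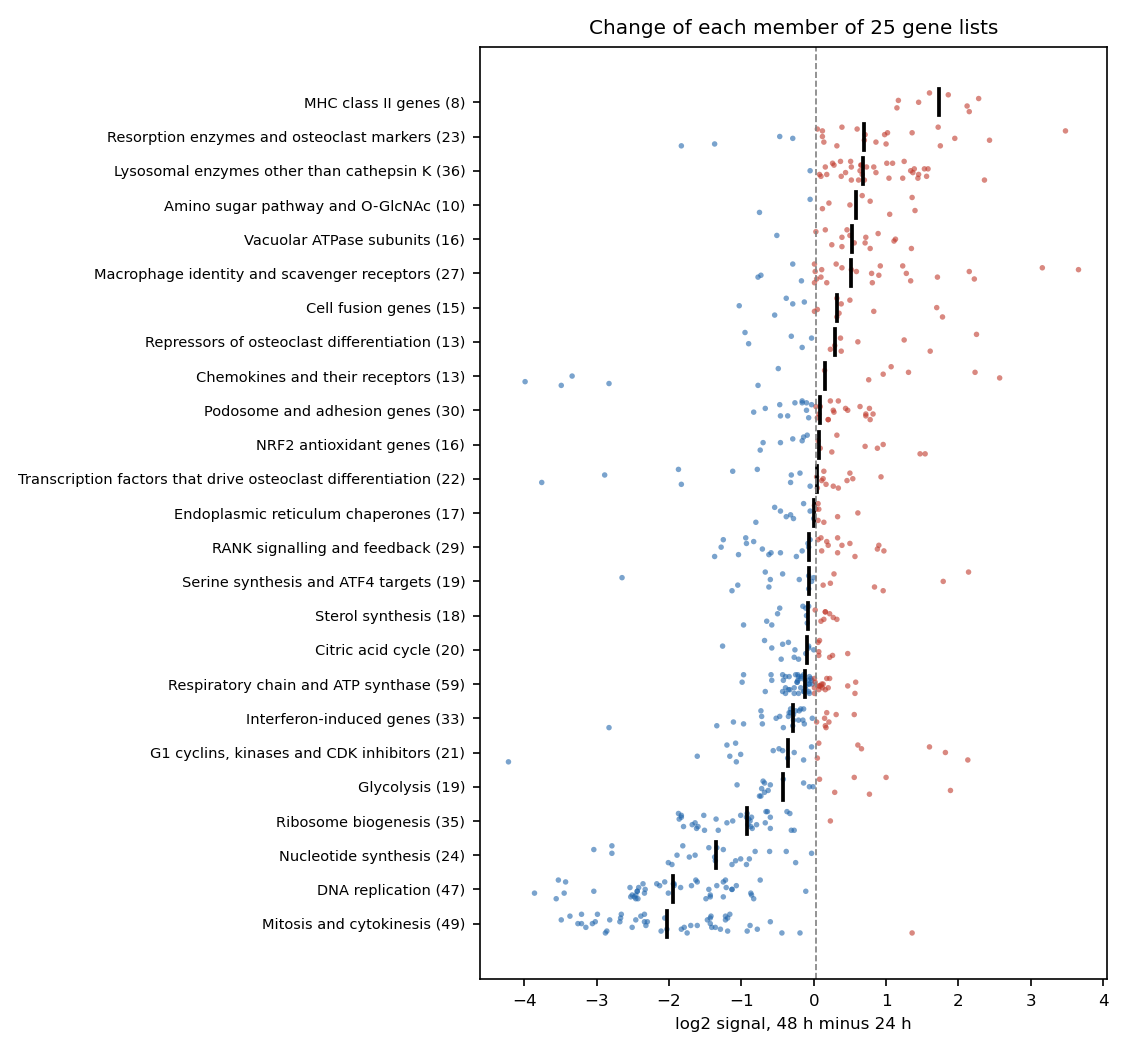
Each point is a gene of a list, placed by its log2 difference, 48 h minus 24 h (horizontal axis), red for a difference above 0 and blue below, with the list's median as a bar, the number of genes in parentheses and the median over all genes as a dashed line. The points of DNA replication and mitosis lie almost wholly left of 0, with medians of -1.94 and -2.03, and all points of the MHC class II list lie to the right, as do nearly all of the lysosomal list, whose lowest is -0.05.

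Genes of resorption rose over the same interval. Of 23 resorption enzymes and osteoclast markers, 17 rose and 4 fell (median 0.70), against 39.2% and 34.6% of all genes. Ctsk, the collagen-degrading cathepsin K, was 12.75 to 12.85 (median 12.77) at 24 h and 14.38 to 14.61 (median 14.56) at 48 h, a 3.36-fold rise (adjusted p = 1.34e-27). Mmp9, a gelatinase, went from 10.79 to 11.07 (median 10.98) up to 13.29 to 13.54 (median 13.41), a 5.38-fold rise. Acp5, the tartrate-resistant acid phosphatase, went from 7.34 to 7.73 (median 7.60) up to 8.64 to 9.14 (median 9.01), a 2.57-fold rise. None of the 3 had overlapping arrays, and their differences from 48 h to 72 h were -0.20, -0.52 and -0.60. Rab38, a GTPase of lysosome-related organelles, was detected on 1 array at 24 h and 6 at 48 h and rose 3.86-fold, and Mmp14 rose 3.28-fold. The 4 falls included Tnfrsf11a, the receptor RANK itself, which was 10.21 to 10.54 (median 10.46) and then 8.93 to 9.25 (median 8.99), a 2.59-fold fall (adjusted p = 2.76e-20), and the AP-1 family member Jdp2, which fell 3.56-fold. Across the list, 16 of the 23 genes were above 0 h at 48 h, against 33.1% of all genes.

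The fusion genes did not move as 1 group. Dcstamp, the membrane protein needed for osteoclast fusion, was 8.45 to 8.80 (median 8.59) at 24 h and 8.78 to 9.04 (median 8.92) at 48 h, a 1.25-fold rise (adjusted p = 1.35e-05; exact two-sided permutation test of 6 against 6 arrays, p = 0.00433), and the arrays of the 2 times overlapped. Its partner Ocstamp was 7.42 to 7.64 (median 7.55) and then 7.08 to 7.40 (median 7.24), a 1.23-fold fall. Of 15 fusion genes, 8 rose and 5 fell (median 0.32), against 39.2% and 34.6% of all genes. Mfge8, which bridges cells to phosphatidylserine, rose 3.45-fold. The adhesion receptor gene Cd44 fell 2.04-fold, with its probes between -1.16 and 0.04. Of 30 podosome and adhesion genes, 14 rose and 7 fell (median 0.08), and with median scaling 11 rose and 10 fell. Src, the kinase needed for the resorbing border, rose 1.72-fold and the GTPase gene Rac2 rose 1.77-fold.

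Transcripts for acid secretion and lysosomal digestion rose more evenly. Of 16 vacuolar ATPase subunits, 14 rose and 1 fell (median 0.53), against 39.2% and 34.6% of all genes. Each of those 15 had arrays that did not overlap, against 29.9% of all genes upward and 27.1% downward. Their list mean went from 12.20 to 12.28 on the 24 h arrays up to 12.75 to 12.80 at 48 h. Atp6v0a1 rose 2.55-fold, Atp6v1a 2.18-fold and Atp6v1d 2.15-fold, and the fall was of Atp6v0a2, another isoform of the membrane subunit a, at 1.42-fold. Of 36 lysosomal enzymes other than cathepsin K, 33 rose and 0 fell (median 0.69). Ctsh, a cysteine cathepsin, was 11.74 to 12.07 (median 11.94) and then 13.44 to 13.53 (median 13.50), a 2.95-fold rise, and Ctsf, another, rose 2.89-fold. Arsb, a sulfatase for glycosaminoglycans, rose 2.99-fold on its main probe and by a log2 difference of 0.31 on another. Ctsa, protective protein for lysosomal glycosidases, rose 5.14-fold on its main probe, with its probes between 0.51 and 2.36. At 48 h, 27 of the 36 enzymes and 10 of the 16 pump subunits were above 0 h, against 33.1% of all genes.

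The letters TCACGTGA, the core of the CLEAR element of lysosomal promoters, were found in 1 of 11 vacuolar ATPase promoters (9.09%) and 2 of 31 lysosomal promoters (6.45%), against 1.71% of genes tested and 0.803% of all promoters. These counts are small. The letters were also in 1 of 39 replication promoters (2.56%) and 1 of 40 mitosis promoters (2.5%), lists that fell. They were in 0 of 16 resorption promoters and in 1.65% of the genes that rose 2-fold or more. The promoter of Atp6v1a, which lies on the minus strand at chr16:44139260-44139509, is shown as the pump subunit with the motif, in capitals, at position -132 from the start.
Atp6v1a: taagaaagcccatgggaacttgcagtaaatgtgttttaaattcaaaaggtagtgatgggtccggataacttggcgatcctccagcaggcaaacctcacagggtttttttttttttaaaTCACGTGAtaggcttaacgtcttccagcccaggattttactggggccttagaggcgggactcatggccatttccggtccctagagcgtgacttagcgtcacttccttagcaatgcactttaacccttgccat
The lysosomal genes with the motif were Gla and Ctsd, named after their values were seen.

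**Figure D4:**
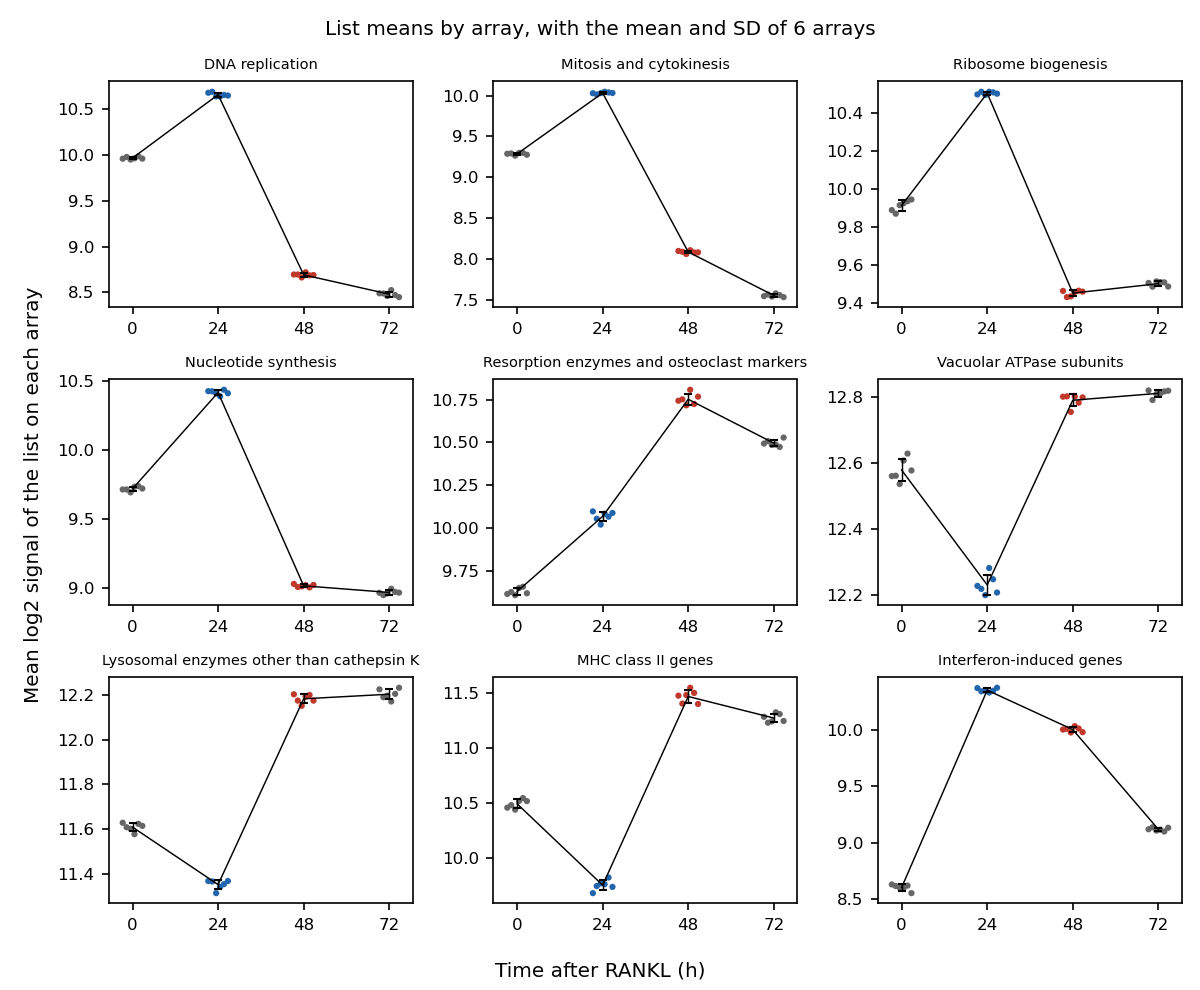
Mean log2 signal over the genes of a list (vertical axis) on each array against hours after RANKL (horizontal axis), with points for single arrays, a line through the time means and bars for the SD of 6 arrays; each panel has its own scale. The median of the replication points goes from 9.96 to 10.65, 8.69 and 8.48 over the 4 times, and that of the lysosomal points from 11.61 to 11.36, 12.18 and 12.20.

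Transcription factors that drive differentiation split evenly, with 9 of 22 higher and 9 lower (median 0.04). These shares are near those over all genes, 39.2% higher and 34.6% lower (median 0.03). Fos, the AP-1 subunit upstream of Nfatc1, was 11.84 to 12.34 (median 12.25) at 24 h and 9.12 to 9.49 (median 9.27) at 48 h, a 7.43-fold fall (adjusted p = 1.1e-28). Mycl was 11.31 to 11.49 (median 11.42) and then 7.55 to 7.75 (median 7.63), below every 24 h array. Nfatc1 was 10.32 to 10.52 (median 10.39) and then 10.63 to 10.96 (median 10.73), a 1.26-fold rise, but its probes ran from -0.74 to 0.52. Jun, another AP-1 subunit, rose 1.91-fold. With median scaling 5 of the 22 rose in place of 9.

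Of 13 repressors of differentiation, 8 rose and 3 fell (median 0.29), against 39.2% and 34.6% of all genes. Irf8, a repressor of Nfatc1, was 8.82 to 9.11 (median 9.03) at 24 h and 10.41 to 10.71 (median 10.64) at 48 h, a 3.05-fold rise (adjusted p = 4.97e-23). Egr2, which induces ID proteins, was 8.12 to 8.31 (median 8.15) and then 10.19 to 10.51 (median 10.45), a 4.74-fold rise, and Id2 rose 2.37-fold. No arrays of these genes overlapped between the times. Id1 fell 1.93-fold. Bcl6 was 10.47 to 10.79 (median 10.65) and then 10.52 to 10.86 (median 10.56), a difference of -0.03 that did not pass (adjusted p = 0.696; exact two-sided permutation p = 0.656). Among 29 genes of RANK signalling and its feedback, 11 rose and 13 fell (median -0.07). Tyrobp, the adaptor DAP12, rose 1.96-fold, and Nfkbia, the inhibitor of NF-κB, fell 2.06-fold.

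Genes of macrophage identity and antigen presentation also rose. Of 27 macrophage and scavenger receptor genes, 18 rose and 4 fell (median 0.52), against 39.2% and 34.6% of all genes. The list mean went from 10.96 to 10.99 at 24 h up to 11.72 to 11.75 at 48 h. Mertk, a receptor for apoptotic cells, was 8.95 to 9.36 (median 9.07) and then 11.16 to 11.54 (median 11.31), a 4.66-fold rise, and its ligand Gas6 rose 4.38-fold. The Fc receptor gene Fcgr3 rose 4.44-fold. Cx3cr1, the fractalkine receptor, fell 1.70-fold, and the scavenger receptor gene Marco fell 1.66-fold. Cd14, a co-receptor for bacterial lipopolysaccharide, was 12.23 to 12.41 and then 12.34 to 12.49, a difference of 0.10 (adjusted p = 0.0710).

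All 8 MHC class II genes rose, with a median of 1.73. H2-Ab1, a class II beta chain, was 10.81 to 11.02 (median 10.95) at 24 h and 13.11 to 13.32 (median 13.23) at 48 h, a 4.85-fold rise (adjusted p = 1.13e-29). Cd74, the invariant chain, was 12.06 to 12.26 (median 12.16) and then 13.93 to 14.10 (median 14.01), a 3.63-fold rise. Each of the 8 had fallen in the first day, against 37.8% of all genes, and each was above 0 h at 48 h, against 33.1%. In contrast, 24 of 33 interferon-induced genes fell and 5 rose (median -0.28), and with median scaling 2 rose. All 33 had risen in the first day, against 29.2% of all genes. Isg15, a ubiquitin-like modifier, fell 2.17-fold and Oasl1 fell 2.53-fold. Gbp2 and Irf7, a guanylate-binding protein and a regulator of interferon genes, rose 1.47-fold and 1.24-fold. The interferon list mean was 8.55 to 8.63 at 0 h, 10.33 to 10.37 at 24 h, 9.98 to 10.03 at 48 h and 9.10 to 9.14 at 72 h, so 32 of the 33 genes were still above 0 h at 48 h. Of 13 chemokine genes and receptors, 7 rose and 6 fell, against 39.2% and 34.6% of all genes. Cxcr4, the receptor of CXCL12, rose 5.95-fold, the atypical receptor gene Ccrl2 rose 4.70-fold and Ccl3 rose 2.48-fold, while Ccl12 fell 10.1-fold beside Ccl2 and Ccl7.

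The metabolic and stress lists are set against 39.2% of all genes rising and 34.6% falling (median 0.03). Of 59 respiratory chain and ATP synthase genes, 29 fell and 9 rose (median -0.12), and with median scaling 32 fell and 3 rose. The cytochrome genes Cycs and Cyc1 fell 1.98-fold and 1.96-fold, and Ndufa6, of complex I, rose 1.49-fold. Of 20 citric acid cycle genes, 9 fell and 3 rose (median -0.09), and with median scaling 10 fell and 1 rose. Of 19 glycolytic genes, 10 fell and 5 rose (median -0.42), with Pkm, a pyruvate kinase gene, 2.08-fold lower and the enolase gene Eno2 3.70-fold higher. Of 10 amino sugar genes, 7 rose and 1 fell (median 0.59), led by Amdhd2, an N-acetylglucosamine-6-phosphate deacetylase, at 2.64-fold. Of 18 sterol synthesis genes, 5 rose and 6 fell (median -0.08), and with median scaling 2 rose and 9 fell. All 18 had fallen in the first day, against 37.8% of all genes, and were still below 0 h at 48 h, against 39.2%. Hsd17b7 fell 1.96-fold more in the second day. Among 19 serine synthesis and ATF4 target genes, 6 rose and 8 fell (median -0.07), with the serine enzyme gene Psat1 6.26-fold lower and the stress factor gene Atf3 4.42-fold higher. Of 16 NRF2 antioxidant genes, 8 rose and 6 fell (median 0.07), and Nfe2l2, which encodes NRF2, rose 2.91-fold. Of 17 endoplasmic reticulum chaperone genes, 2 rose and 7 fell (median 0.00), with Dnajb9 1.53-fold higher and Creld2 1.74-fold lower.

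Many genes turned round at 24 h. Between 0 h and 24 h, 2898 genes (29.2%) rose and 3749 (37.8%) fell. Of these, 1952 rose and then fell (19.7% of all genes tested) and 2367 fell and then rose (23.9%), whereas 515 rose in both steps (5.19%) and 583 fell in both (5.88%). Which order of reversal was the more frequent turned with the scaling: 1981 rose and then fell and 1817 fell and then rose with median scaling, 1983 and 1935 with the authors' processed values, and 1562 and 2823 with 75th percentile scaling. Both steps use the 24 h arrays, so an error in those arrays moves them in opposite directions, and the counts are given as a description with no test. With no reference to the fit, all 6 arrays at 24 h lay above every array at 0 h and 48 h for 1309 genes (13.2%) and below them for 1535 (15.5%). At 1.5-fold or more in both steps, with no overlap of arrays, 493 genes rose and then fell (4.97%) and 510 fell and then rose (5.14%). Of the genes that rose and then fell, 1170 (59.9%) were below 0 h at 48 h, 333 were above it and 449 did not pass. Of those that fell and then rose, 1141 (48.2%) ended above 0 h, 505 (21.3%) below it and 721 (30.5%) did not pass. The comparison of 48 h with 0 h shares arrays with both steps.

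**Figure D5:**
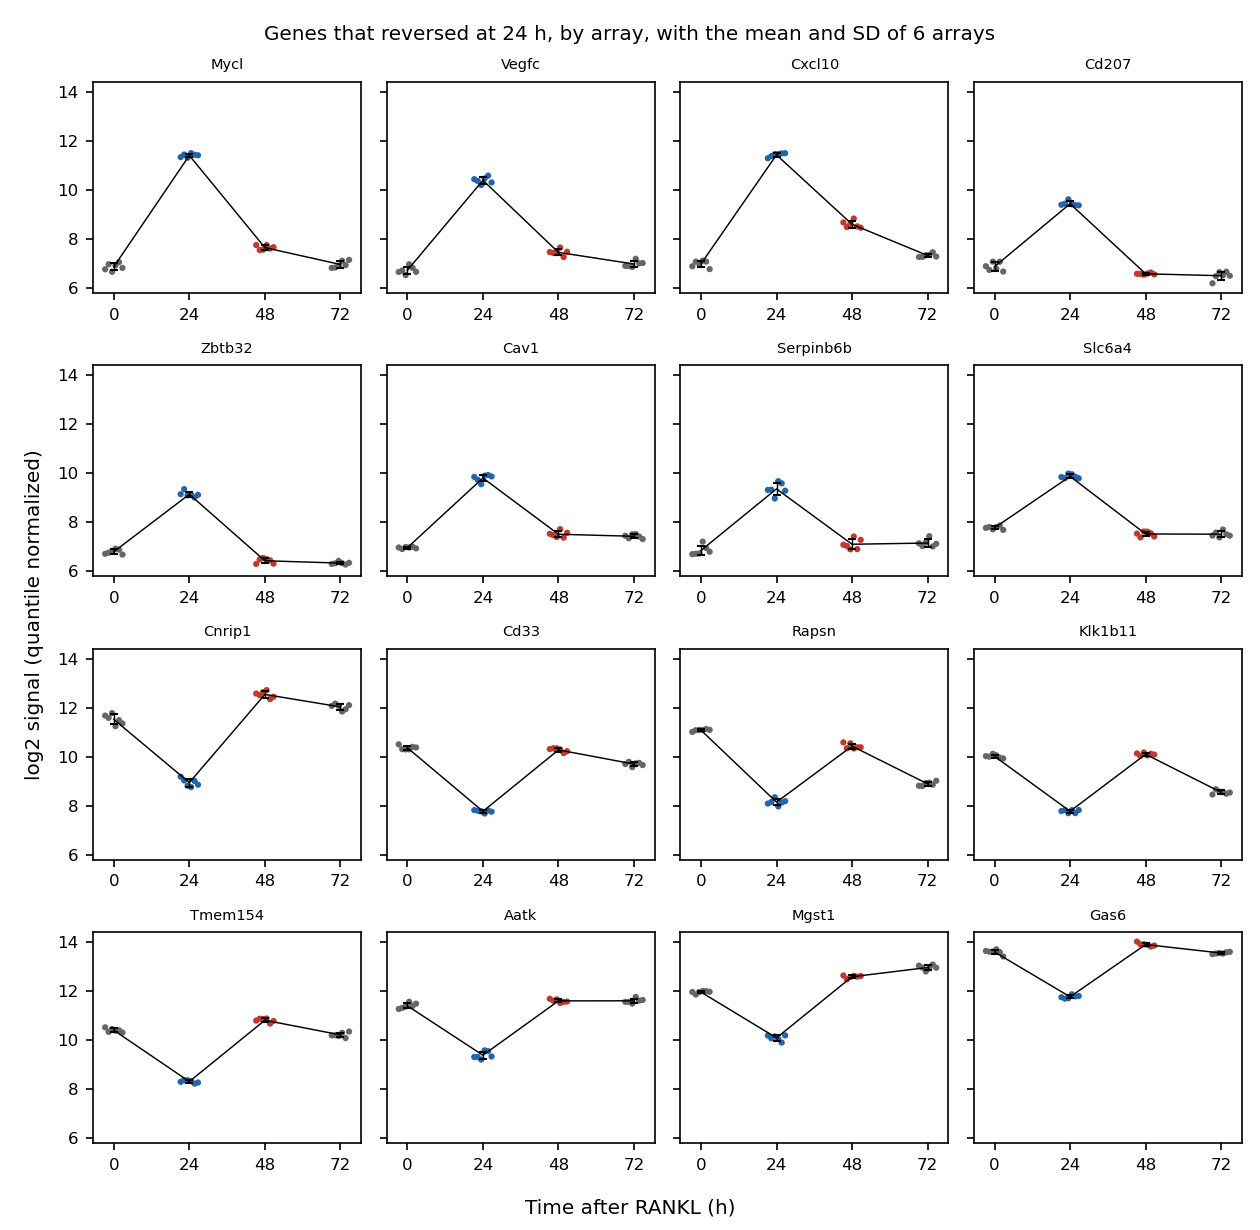
Log2 signal after quantile normalization (vertical axis) against hours after RANKL (horizontal axis) for the 8 named genes of each order of reversal, with points for single arrays, a line through the means and bars for the SD of 6 arrays; levels are not comparable between genes. Mycl peaks at 24 h with a median of 11.42 between 6.87 and 7.63, and Cnrip1 dips to 8.94 between 11.54 and 12.55.

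The reversals named by the size of their smaller step were led by Mycl among the genes that rose first. The chemokine gene Cxcl10 was at a median of 7.03 at 0 h, ran from 11.28 to 11.49 (median 11.45) at 24 h and from 8.46 to 8.83 (median 8.56) at 48 h, so it kept part of its first rise. Vegfc, a growth factor of lymphatic vessels, was at a median of 6.68, then 10.19 to 10.58, then 7.26 to 7.65, a 7.67-fold fall. Both stood above all arrays of the neighbouring times at 24 h, which the rule that named the reversals required. Cd207, the lectin langerin of Langerhans cells, and Zbtb32, a zinc finger repressor, were detected on 6 arrays at 24 h and 0 at 48 h and were at least 5.28-fold and at least 4.33-fold lower. Cav1, the caveolar coat gene, fell 4.90-fold, the protease inhibitor gene Serpinb6b 4.78-fold and Slc6a4, the serotonin transporter, 5.09-fold after first-day rises of 2.84, 2.51 and 2.10 on the log2 scale.

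In the opposite order, Cnrip1 was at a median of 11.54 at 0 h, then 8.77 to 9.19 (median 8.94), then 12.35 to 12.72 (median 12.55). Rapsn, which clusters receptors at the neuromuscular junction, was at 11.09, then 7.98 to 8.35 (median 8.15), then 10.34 to 10.59 (median 10.39), so it did not return to its starting level. The 24 h arrays of both genes lay below all those at 0 h and 48 h, which the same rule required. The sialic acid lectin gene Cd33 fell by 2.59 and then rose by 2.50, with its probes between 0.03 and 2.50 in the second day. Second-day rises of Tmem154 (5.65-fold), Mgst1 (5.63-fold), a microsomal glutathione transferase gene, Klk1b11 (5.00-fold), a kallikrein gene, and Aatk (4.64-fold), a kinase gene, followed first-day differences of -2.09, -1.87, -2.24 and -2.02, and Gas6 belonged to the same group.

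Large changes were mostly reversals that went past the start. Of the 605 genes that rose 2-fold or more in the second day, 494 had fallen in the first, 52 had risen and 59 had not passed, and 556 (91.9%) were above 0 h at 48 h. Of the 645 that fell 2-fold or more, 583 had risen, 33 had fallen and 29 had not passed, and 605 (93.8%) were below 0 h. Over all genes, 29.2% rose and 37.8% fell in the first day. At 48 h, 33.1% of all genes were above 0 h and 39.2% below it. The choice of genes by their second-day change shares the 24 h and 48 h arrays with these counts, which are a description with no test. The median change from 48 h to 72 h was 0.03 for these risers and -0.08 for these fallers. Over all genes, 17.4% rose and 19.4% fell in that last step.

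A small group kept the same direction, 46 genes rising (0.464%) and 28 falling (0.282%) by 1.5-fold or more in both steps without overlap. The leading risers were Mmp9, Mmp14, Tmem176b and Pltp. Pltp, a phospholipid transfer protein gene, was at a median of 7.65 at 0 h, then 9.02 to 9.34 (median 9.25), then 11.29 to 11.64 (median 11.55). The leading fallers were Atg9b, an autophagy gene, Dnmt3l, a cofactor of DNA methylation, Dusp6, a phosphatase of ERK, and Etv5, an ETS factor gene. Dusp6 was at a median of 12.01, then 10.62 to 10.89 (median 10.76), then 9.40 to 9.55 (median 9.46). Each step of Pltp and Dusp6 separated the arrays fully, which the choice of these genes required.

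A further 1001 genes (10.1%) rose and 899 (9.07%) fell in the second day after a first-day change that did not pass, which does not show that they were flat. Mgl2 changed by -0.04 in the first day (adjusted p = 0.464), was 9.66 to 9.81 (median 9.76) at 24 h and 12.66 to 12.75 (median 12.73) at 48 h, then fell by 1.94 to 72 h. Cdkn1a, Ccnd3, Ctsf, Arsb, Ncapg2, Creld2 and Ndufa6 belonged to the same group, with first-day differences of -0.11 to 0.03 on their brightest probes. Other probes of Cdkn1a gave -0.67 and -0.32 and another of Ccnd3 gave 0.65, while those of Arsb, Ncapg2 and Creld2 gave -0.11 to 0.09.

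Markers of other marrow cells were small lists with mixed changes, set against 39.2% of all genes rising and 34.6% falling. Of 16 neutrophil markers, 8 fell and 1 rose, and their summed signal was 26700 to 28200 at 24 h and 24100 to 25600 at 48 h, with Mpo, the myeloperoxidase gene, 1.83-fold lower. The 7 erythroid and megakaryocyte markers summed to 5320 to 6270 and then 3680 to 4360, with 4 lower and 1 higher and Pf4, a platelet chemokine gene, 2.00-fold lower. The sums of 4 B cell markers (1650 to 2020, then 3130 to 3570), 2 T and NK cell markers (207 to 240, then 452 to 497), 6 mast cell and basophil markers (1070 to 1100, then 1470 to 1620) and 4 stromal markers (470 to 535, then 771 to 874) were higher at 48 h. Those of 4 dendritic cell markers overlapped (1750 to 2960, then 1940 to 3340). Single members carried much of these sums: Blnk made up 78.3% of the B cell sum at 24 h and 86.9% at 48 h, and Cd4 47.1% and then 74.4% of the T and NK cell sum. The members of these lists that rose most were Blnk, a B cell adaptor (1.99-fold), Cd4 (at least 2.71-fold), Kit, a stem cell factor receptor (2.71-fold), and Sparc, a matrix protein gene (at least 1.91-fold). Some defining probes of B and T cells were rarely or never detected: Pax5, Cd3d, Cd3e, Cd3g and Cd8a on 0 of 24 arrays and Ms4a1 on 5. The B cell markers Cd79b, Vpreb1 and Ebf1 did pass the filter. So did defining members of other lists, such as Cpa3 and Fcer1a of mast cells and Col1a1 of stromal cells. These lists moved beside the macrophage and MHC class II rises, and their part in them was not tested.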

How the data were processed

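RNA was hybridized to Illumina mouse bead arrays, 6 at each of 4 times. The authors read signal intensities with GenomeStudio and deposited them, with a detection p-value for each probe, without normalization between arrays. The lowest signal was 26.5, so no background had been subtracted. The authors also deposited processed values on a log2 scale, which served as an alternative. The study's methods describe a log transform and quantile normalization, but the medians of these values differ between arrays (1.90 to 1.99), which quantile normalization over the deposited probes would not give. The study's methods name a labelling kit other than that in the labels.

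Signals were put on a log2 scale and quantile normalized across the 24 arrays. One gene symbol was paired with 34885 of 45281 probes, several with 18 and none with 10378. A probe was used where its detection p was under 0.05 on 3 or more of the 6 arrays at any time, and the brightest such probe on average stood for its gene, a choice that bears on 3834 genes. The 4 times were fitted with limma 3.58.1 in R 4.3.3 (eBayes with a trend, 20 residual degrees of freedom), with Benjamini-Hochberg adjustment across 9917 genes. A fold for a probe detected on no array of a time is a lower bound set, on each array, against the lowest detected signal or the probe's own signal where that was higher. Single genes were also tested with an exact permutation test in scipy 1.17.1, of 924 permutations and a smallest p of 0.00216. Figures were drawn with matplotlib 3.10.9. The number of arrays limits the precision.

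The arrays follow from their titles, but the choice of this comparison and of the gene lists was made with earlier results of these data known. The genes named are among the 12 largest rises and 12 largest falls without overlap of arrays, the 8 largest reversals in each order, the 4 largest continued changes in each direction, a set of marker and regulator genes, and for each list up to 5 risers, 5 fallers and 3 bright genes that did not pass. Motifs were searched in the 250 bases before the start of RefSeq genes. The alternatives tried were other background corrections, scalings, filters, probe choices, fits and tests, the replicate number as a block, and each array left out.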

Additional observations from a re-analysis of the deposited data

Results flagged for a closer look

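In 22 of 256 groups of 6 arrays, 1 for each named gene and time, the highest or lowest array stood further from its neighbour, relative to the group's range, than Dixon's critical value allows. Chance alone flags about 1 in 20 groups. Of these arrays, 11 were replicate 4 at 48 h, the array with the largest deviation from its group. Values are log2 signals, each beside that of the nearest other array.

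At 48 h, replicate 4 was highest for Dmpk (7.04 beside 6.76), Cdkn1a (11.76 beside 11.66), Jdp2 (10.50 beside 10.30), Bcl6 (10.86 beside 10.63) and Nfkbia (11.47 beside 11.27). It was lowest for Irf8 (10.41 beside 10.60), Egr2 (10.19 beside 10.42), Tyrobp (13.37 beside 13.75), Isg15 (9.62 beside 9.86), Ccl12 (7.08 beside 7.28) and Rac2 (11.57 beside 11.78). Replicate 3 at 48 h was lowest for Cdk1 (8.85 beside 9.11), Rb1 (9.90 beside 10.21) and Ctsk (14.38 beside 14.53). Replicate 6 at 48 h was lowest for Fcgr3 (13.36 beside 13.44).

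At 24 h, replicate 3 was highest for Selenop (10.48 beside 10.31) and Cd207 (9.61 beside 9.43) and lowest for Fos (11.84 beside 12.16) and Sparc (6.65 beside 6.89). Replicate 5 was highest for Cyp27a1 (8.55 beside 8.34), replicate 1 for Egr2 (8.31 beside 8.19) and replicate 4 for Mfge8 (12.82 beside 12.72). The signals of Sparc at 24 h and Dmpk at 48 h were not detected.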

How the results depend on the processing

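The 3883 rises and 3434 falls became 3888 and 3434 with normexp background correction, 3529 and 3518 with the authors' processed values, 3162 and 3752 with median scaling, 4058 and 3292 with 75th percentile scaling, and 4029 and 3578 with no filter over 19057 genes. The study's methods name a t-test with Bonferroni's correction for most comparisons, not for the arrays in particular. With that test and a Bonferroni adjustment over 9917 genes, a choice made here, the counts were 1763 and 1687, and with Benjamini-Hochberg adjustment 3804 and 3382. Genes that rose and then fell numbered 636 and genes that fell and then rose 675 with the Bonferroni adjustment, against 1952 and 2367. Leaving out 1 array gave 3806 to 3865 rises, 3344 to 3417 falls, 1881 to 1972 genes that rose and then fell and 2305 to 2389 that fell and then rose. The labels do not say that the replicate numbers pair the samples, and same-numbered arrays at 24 h and 48 h deviated together with r of -0.18 to 0.35, positive for 5 of 6 numbers and highest for replicate 4, so pairing was not used. The replicate block gave 3987 rises and 3510 falls, 2025 and 2488 reversals. Of 3328 values for 128 named genes under 26 alternatives, 3309 kept their direction and side of the threshold, 13 lost the threshold and 5, all of Cd14, gained it. Bcl6, which had not passed, ran from -0.08 to 0.00 with 1 array left out and changed sign without replicate 4 at 24 h (adjusted p = 0.999). Dmpk did not pass on its second probe. Rb1, Dcstamp, Ocstamp, Nfatc1, Tyrobp, Marco, Gbp2, Irf7, Ndufa6, Dnajb9 and Pes1 did not pass with Bonferroni adjustment. The cause of these changes was not tested. The slide could not be fitted as a block.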
